A study of Mus musculus with 4 samples.

Results

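The collagen genes were taken as every gene feature whose symbol has the form of a collagen chain (Col, a type number, a and a chain number) and that held at least 50 UMIs (unique molecular identifiers, each standing for 1 captured transcript) over all 4 libraries. The rule found 36 of 44 collagen features, among 31053 genes, of which 15445 reached 50 UMIs. They comprised 10 fibrillar chains, 5 chains of the basement membrane network, 5 FACIT chains (fibril-associated collagens with interrupted helices), 6 beaded filament chains, 3 transmembrane chains, 2 multiplexins, 2 short chains, the anchoring fibril chain Col7a1, and Col26a1 and Col28a1. The 8 features below the minimum were Col2a1, Col4a6, Col9a1, Col9a2, Col10a1, Col19a1, Col22a1 and Col25a1. The member nearest the minimum was Col6a4 with 53 UMIs, and the nearest left out was Col9a2 with 38.

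Single-cell 3′ RNA libraries had been made from dissociated back skin of BALB/c mice, and each group was 1 library. The WT and the Cd226-/- treated libraries came from skin given DMBA (a carcinogen) at 25 µg, then, starting 1 week later, TPA (a tumour promoter) at 5 µg in 3 weekly doses, with cells taken 3 weeks after treatment. Each treated library pooled 3 mice, and sorted CD45+ and CD45- cells were recombined in equal parts. Untreated skin gave a naive CD45- and a naive CD45+ library, and each mixed cells of WT and Cd226-/- mice, so no naive value belongs to 1 genotype. Cd226 encodes DNAM-1, a receptor of T and NK cells. The skin was digested with collagenase type IV, and cells that resist this step can be missed.

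Collagens are extracellular proteins whose chains wind around each other into a helix. Fibroblasts deposit fibrils of types I, III and V, which give the dermis its tensile strength, and FACIT chains coat those fibrils. Type IV chains form the sheet-like network of basement membranes around vessels and below the epidermis, type VII fibrils anchor that sheet to the dermis, and type VI filaments surround cells.

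The upstream windows of 3 genes are shown because their genes carry the main results: Col3a1, a fibril chain lower in treated fibroblasts, and Col8a1 and Col6a5, higher in the Cd226-/- library. Each is the 250 bases before the RefSeq transcript start (GRCm38.p6), 5′ to 3′ on the gene's strand, and none overlaps an annotated exon. Capitals mark a TATAAA motif, whose first base lies 117 bases before the start of Col3a1.
Col3a1, chr1:45311288-45311537, plus strand: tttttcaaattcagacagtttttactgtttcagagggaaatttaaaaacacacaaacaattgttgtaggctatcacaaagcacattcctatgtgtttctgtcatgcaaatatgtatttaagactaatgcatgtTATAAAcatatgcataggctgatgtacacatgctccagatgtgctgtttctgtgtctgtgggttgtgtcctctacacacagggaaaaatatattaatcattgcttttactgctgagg
Col8a1, chr16:57754738-57754987, minus strand: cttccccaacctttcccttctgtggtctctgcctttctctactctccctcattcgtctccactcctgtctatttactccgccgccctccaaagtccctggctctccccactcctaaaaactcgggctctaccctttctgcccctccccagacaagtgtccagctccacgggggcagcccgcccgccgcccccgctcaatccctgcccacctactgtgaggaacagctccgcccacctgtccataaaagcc
Col6a5, chr9:105960644-105960893, minus strand: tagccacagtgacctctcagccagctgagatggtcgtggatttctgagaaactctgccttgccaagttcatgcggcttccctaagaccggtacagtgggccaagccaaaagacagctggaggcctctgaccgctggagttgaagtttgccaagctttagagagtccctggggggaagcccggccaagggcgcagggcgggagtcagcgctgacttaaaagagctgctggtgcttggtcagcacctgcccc

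RefSeq held such a window for 29 of the 36 collagen genes. Searched on both strands, CCAAT stood in 11 of them and in 34.5% of 27025 promoters, TATAAA in 4 (Col3a1, Col11a2, Col13a1 and Col17a1) and 13% of promoters, and TGANTCA in 1 (Col6a1) and 6.87% of promoters. Neither the Col8a1 nor the Col6a5 window held any of the 3 motifs. A match describes the letters of a window and is not a shown binding site.

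The libraries held 72606822 gene UMIs (WT), 71245703 (Cd226-/-), 81406730 (naive CD45-) and 42043869 (naive CD45+), and between 3494 and 10597 cells were kept per library. Any 2 libraries shared between 6 and 19 cell barcodes. DNAM-1 antibody tag counts had a median of 47 per lymphocyte in the WT library, 2 in the Cd226-/- library and 10 in the naive CD45+ pool, whereas Cd226 transcript was still counted in the Cd226-/- library (14.4 against 43.8 UMIs per 1000000 lymphocyte UMIs in WT), and a 3′ count need not lie in the deleted part of the gene. Fibroblast-like cells were named from a general list of 9 markers or from lists for fibroblast subsets, none with collagens. They numbered 4049 (WT), 2753 (Cd226-/-) and 10160 (naive CD45-). Their median depth was 10142, 12653 and 6628 UMIs. All 9 markers of the general list were detected in each of these libraries, with a summed level of 21944, 23027 and 27072 UMIs per 1000000. The 7 immune markers together reached only 24.2, 56.5 and 11.7 in the same unit and cells, so few immune transcripts were counted with them.

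Levels below are in CPM, UMIs per 1000000 UMIs of the cell class in that library. They are not divided by transcript length, so levels are compared between libraries or cell classes for 1 gene and not between genes. With 1 library per group no test between groups was possible: intervals are exact 95% intervals for counting error only, they do not hold the variation between animals, and a difference is described as past the fold when it reached 1.5-fold. UMIs from free RNA enter every droplet, and the level in immune-like cells of the same library is given as that background. Fewer cells of a subtype and less transcript per cell cannot be told apart in sums over a class.

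Collagen transcripts made up 15.5% of all fibroblast UMIs in naive CD45- skin, 5.88% in WT treated skin and 4.29% in Cd226-/- treated skin. Both treated libraries lay far below the naive CD45- library. The 160 fibroblast-like cells of the naive CD45+ library, which passed a sort for immune cells, had a share of 6.96%, near the treated values, with Col1a1 at 19961 CPM, so the 2 naive libraries themselves differed. The share also varied widely between fibroblast clusters of 1 library. In naive CD45- skin it was 23.6% in cluster 0, led by Gpha2 and Aldh3a1, and 22.8% in cluster 5, led by Nkain4 and Lgr5, but 4.31% in cluster 1, the Pi16 fascia-type-like fibroblasts. Clusters 0 and 5 held no cell of either treated library. Conversely, clusters 3, 7, 8 and 18 held 9, 31, 14 and 2 of the 10160 naive CD45- fibroblasts, so treated and naive fibroblasts seldom fell into the same cluster. Of the 160 naive CD45+ fibroblasts, clusters 0 and 5 held 11 and 5. In cluster 1 the share of 48 naive CD45+ cells was 4.01%, near that of the naive CD45- cells. Treatment and library cannot be told apart here.

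**Figure D1:**
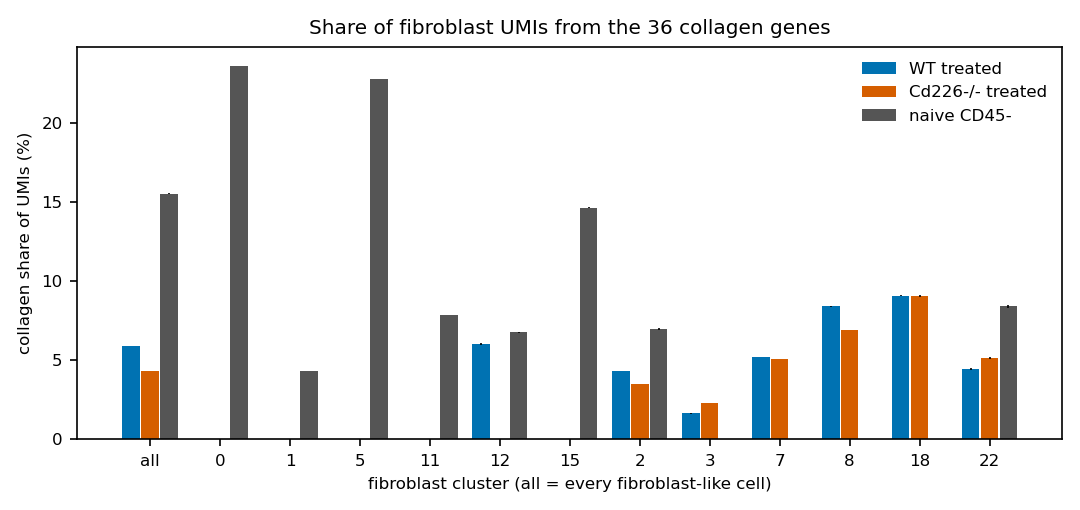
Share of UMIs that belong to the 36 collagen genes (vertical axis, percent), by library. Bars are shown for all fibroblast-like cells and for each fibroblast cluster except 31 and 32 (horizontal axis). Lines are exact 95% binomial intervals, and bars are missing where a cluster had fewer than 50 cells. Naive CD45- cells of clusters 0 and 5 stand at 23.6% and 22.8%, above every treated bar.

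Among treated fibroblast clusters with at least 50 cells in both libraries, the largest share was in cluster 18, the Tnc and Grem1 high fibroblast-like cells (9.06% in WT and 9.04% in Cd226-/-). Cluster 8, led by Cxcl5, Chl1 and Postn, followed with 8.38% and 6.90%, and cluster 3, led by Mrgprg and Edn1, had the smallest share with 1.63% and 2.29%. Clusters 8 and 18 together held 1343 of 4049 WT fibroblasts (33.2%) and 297 of 2753 Cd226-/- fibroblasts (10.8%). Without these collagen-rich clusters, a setting added after the data were seen, collagens took 3.74% of UMIs in WT and 3.68% in Cd226-/- fibroblasts. The lower overall share in the Cd226-/- library stood beside fewer cells of these clusters, but shares within clusters differed as well. Besides clusters 3 and 8 above, cluster 2 had 4.31% in WT and 3.465% in Cd226-/- cells, and cluster 7 had 5.18% and 5.05%. The part of each in the overall difference was not tested. Whether cell numbers in 1 pool of 3 mice reflect the genotype was not tested.

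**Figure D2:**
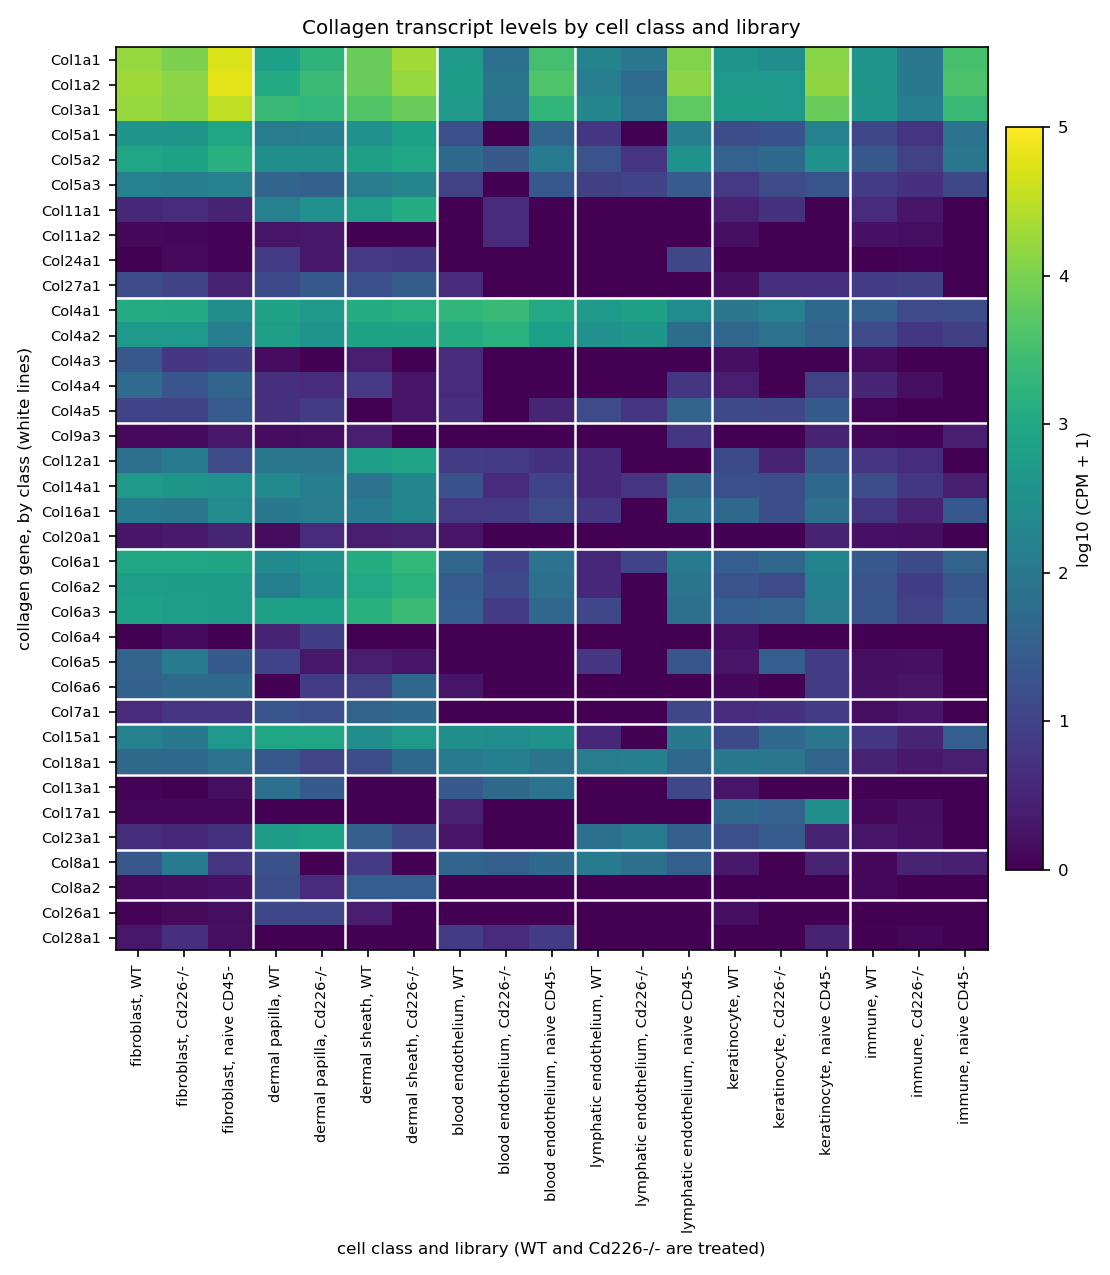
Level of each of the 36 collagen genes (rows, by structural class between white lines) in each cell class and library (columns), as log10 of CPM plus 1. Col3a1 is brightest in fibroblast-like columns, Col4a1 and Col4a2 in blood endothelium-like columns, Col23a1 in dermal papilla-like columns and Col17a1 in keratinocyte-like columns.

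The fibril-forming chains of types I and III gave most collagen UMIs of fibroblast-like cells, and each was lower in both treated libraries than in naive CD45- skin. Col1a1, the major chain of type I, stood at 52417 CPM in naive CD45-, 15978 in WT and 10226 in Cd226-/- fibroblasts. Col1a2, its partner chain, stood at 62852, 19731 and 13465 in the same order, and Col3a1, the type III chain of pliable fibrils, at 33769, 16586 and 13082. All 3 genes had the same order of libraries. Against naive CD45- skin, Col1a1 was 3.28-fold lower in WT (3.27 to 3.29) and 5.13-fold lower in Cd226-/- fibroblasts, Col1a2 3.19-fold and 4.67-fold lower, and Col3a1 2.04-fold and 2.58-fold lower. These 2 comparisons share the naive library and are set side by side only. Within cluster 2, the 1 cluster with at least 100 cells in all 3 libraries, the differences were smaller: Col1a1 stood at 13618 in naive CD45-, 9716 in WT and 7007 in Cd226-/- cells, 1.40-fold (under the fold) and 1.94-fold lower, and Col1a2 was 1.65-fold and 2.16-fold lower. Over all fibroblast-like cells, the 8 markers of Saa3 inflammatory fibroblasts summed to 711 CPM in naive CD45-, 3509 in WT and 5612 in Cd226-/-. The 7 markers of Tnc and Grem1 high fibroblasts summed to 959, 2788 and 1983 in the same order. These sums were not read within cluster 2, and their part in the difference was not tested.

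The balance between the fibril chains differed as well. There were 0.644 Col3a1 UMIs per Col1a1 UMI in naive CD45- fibroblasts, 1.04 in WT and 1.28 in Cd226-/- treated fibroblasts. Col1a1 per Col1a2, whose products assemble into 1 molecule, varied less, at 0.834 in naive CD45-, 0.810 in WT and 0.760 in Cd226-/- cells.

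Type V chains, which set fibril diameter, followed type I in part. Col5a1 stood at 855 CPM in naive CD45-, 403 in WT and 434 in Cd226-/- fibroblasts, and was 2.12-fold and 1.97-fold lower in the treated libraries. Col5a2 stood at 1521, 925 and 802 and was 1.64-fold and 1.90-fold lower. Col5a3 stood at 150, 158 and 139 and did not reach the fold in either comparison. The minor fibrillar chain Col27a1 went the other way, at 2.16 in naive CD45-, 13.0 in WT and 9.39 in Cd226-/- cells, 6.003-fold and 4.36-fold higher in treated skin. Within cluster 2 its direction turned, at 14.5 in naive CD45- (11 UMIs), 9.51 in WT and 11.3 in Cd226-/- cells. Col11a1 was at 1.97, 2.79 and 3.34, and Col11a2 and Col24a1 were too rare in fibroblasts for a ratio.

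Between the treated libraries, most fibril chains were lower in Cd226-/- fibroblasts, but for Col1a1 the difference varied between clusters. Of the 8 fibrillar chains with enough UMIs, 2 were higher and 6 lower, and only Col1a1 was past the fold, 1.56-fold lower (1.56 to 1.57). Within clusters, Col1a1 stood at 9716 in WT and 7007 in Cd226-/- cells of cluster 2, 12571 and 12904 in cluster 7, and 23841 and 18555 in cluster 8. In cluster 3 it was higher in the Cd226-/- library, at 3967 against 2481. The direction of Col1a1 therefore differed between the 4 clusters with at least 100 cells in both libraries. When these clusters were weighted equally Col1a1 was 1.15-fold lower, and without clusters 8 and 18 it was 1.03-fold lower, both under the fold. The part of the cluster mix in the difference was not tested.

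Of the 5 basement membrane chains, Col4a1 and Col4a2, which assemble into the network common to all basement membranes, stood higher in both treated libraries. Col4a1 stood at 292 CPM in naive CD45-, 1181 in WT and 1155 in Cd226-/- fibroblasts, and Col4a2 at 134, 470 and 470. The treated libraries lay side by side and well above the naive one. Col4a1 was 4.05-fold higher in WT (3.99 to 4.12) and 3.96-fold higher in Cd226-/- treated cells, and Col4a2 3.497-fold higher in each. The network chains were 0.324% of collagen UMIs in naive CD45-, 2.96% in WT and 3.87% in Cd226-/- fibroblasts, a share that also depends on the type I chains. The 8 blood endothelium markers, a list of cells rich in type IV chains, summed to 51.8, 68.2 and 81.9 CPM in the same fibroblasts, with Pecam1 at 0.550, 0.753 and 0.511, and their part in the difference was not tested.

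Within clusters the difference was smaller. In cluster 2, led by Ctgf and Hmcn2 and with 148 naive CD45- cells, Col4a1 was 1.07-fold higher in WT and 1.10-fold higher in Cd226-/- than in naive CD45- cells, and Col4a2 1.12-fold and 1.15-fold higher, all under the fold. In cluster 12, adventitial or reticular resting-like fibroblasts with 87 WT and 902 naive cells, Col4a1 was 1.83-fold higher in WT. In fibroblasts of naive CD45- skin Col4a1 ran from 172 CPM in cluster 1 to 1301 in cluster 2.

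Col4a3 and Col4a4, chains of a specialised network best known from kidney, differed most between the genotypes among the basement membrane chains. Col4a3 stood at 7.42 CPM in naive CD45-, 21.8 in WT and 5.09 in Cd226-/- fibroblasts, 4.28-fold lower in Cd226-/- than in WT (3.66 to 5.03). Col4a4, whose gene lies head to head with Col4a3 on chromosome 1, stood at 41.6, 56.0 and 19.5, 2.86-fold lower (2.64 to 3.11). A UMI of Col4a3 was seen in 14.1% of WT and 4.90% of Cd226-/- fibroblasts, although the Cd226-/- cells were sequenced more deeply. In immune-like cells these shares were 0.313% and 0.0307%.

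The lower Col4a3 and Col4a4 levels recurred within clusters. In cluster 2 Col4a3 stood at 56.7 in naive CD45-, 57.6 in WT and 10.4 in Cd226-/- cells, and Col4a4 at 168, 132 and 24.2. There, the WT treated and naive levels lay close together and the Cd226-/- level was the low one. Col4a4 was lower in the Cd226-/- library in 4 of 4 clusters and past the fold in 3, and Col4a3 was lower and past the fold in all 3 clusters where it could be measured. Col4a5, a chain that joins Col4a3 and Col4a4 in that network, stood at 27.4 in naive CD45-, 9.10 in WT and 9.69 in Cd226-/- fibroblasts, 3.01-fold and 2.82-fold lower in treated skin.

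FACIT chains on the fibril surface differed in direction. Col12a1, found on fibrils under mechanical load, stood at 13.2 CPM in naive CD45-, 66.5 in WT and 111 in Cd226-/- fibroblasts. It was 5.04-fold higher in WT and 8.40-fold higher in Cd226-/- than in naive CD45- cells, and 1.67-fold higher in Cd226-/- than in WT (1.59 to 1.75). Col14a1, the related chain of the same fibrils, stood at 331, 514 and 437, and its UMIs per Col12a1 UMI were 25.1, 7.73 and 3.94. Within cluster 2, Col12a1 stood at 149 in naive CD45-, 112 in WT and 223 in Cd226-/- cells, so the higher level of the WT library over naive did not hold there. Between the genotypes Col12a1 was past the fold in clusters 2, 7 and 8, though under trimmed-mean scaling it fell under the fold in cluster 8. In cluster 3 it stood at 26.8 in Cd226-/- and 27.9 in WT cells.

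Col14a1 was lower in Cd226-/- than in WT cells in 4 of 4 clusters, past the fold only in cluster 7 (117 against 201). Col16a1, a FACIT chain linking fibrils to other matrix, stood at 256 in naive CD45-, 107 in WT and 93.2 in Cd226-/- fibroblasts, 2.40-fold and 2.75-fold lower in treated skin. Col20a1 stood at 2.24, 0.996 and 1.29 and Col9a3 at 1.13, 0.332 and 0.431, both rare in these cells.

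The core beaded filament chains of type VI differed little between the libraries. Col6a1 stood at 838 in naive CD45-, 905 in WT and 860 in Cd226-/- fibroblasts, Col6a2 at 547, 626 and 568, and Col6a3 at 541, 728 and 596. None of these 3 core chains was past the fold in any of the 3 comparisons. Under trimmed-mean scaling the median of the class against naive turned from 0.20 to -0.02 (log2) in WT and from 0.06 to -0.16 in Cd226-/- cells, so no direction is given for it. Within cluster 2, however, Col6a1 was 2.12-fold lower in WT and 2.15-fold lower in Cd226-/- than in naive CD45- cells.

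Col6a5, an alternative type VI chain that is thought to take the place of Col6a3, was among the collagens most different between genotypes. It stood at 25.4 in naive CD45-, 38.3 in WT and 120 CPM in Cd226-/- fibroblasts, 3.12-fold higher in Cd226-/- than in WT (2.96 to 3.31). It was seen in 9.31%, 14.8% and 35.0% of fibroblasts and in at most 0.429% of immune-like cells of these libraries. The difference recurred past the fold in 4 of 4 clusters: 109 against 53.0 in cluster 2, 64.4 against 10.3 in cluster 3, 246 against 95.3 in cluster 7 and 70.6 against 30.7 in cluster 8. The level was highest in cluster 7, adventitial or reticular resting-like fibroblasts, in the Cd226-/- library, and in the like-named cluster 12 in naive CD45- skin (186). Col6a6, a further alternative chain, stood at 49.8 in naive CD45-, 34.2 in WT and 51.2 in Cd226-/- cells, and Col6a4 was nearly absent.

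Col8a1, a short chain of the hexagonal networks of vessel walls and some basement membranes, had the largest difference between genotypes among the collagen genes measured in fibroblast-like cells. It stood at 5.17 CPM in naive CD45-, 22.02 in WT and 117 in Cd226-/- fibroblasts. The Cd226-/- level was 5.30-fold that of WT (4.95 to 5.69) and 22.6-fold that of naive CD45- cells (20.3 to 25.2), and WT was 4.26-fold above naive. Fibroblasts with a Col8a1 UMI made up 1.82% in naive CD45-, 7.51% in WT and 19.9% in Cd226-/- skin, against 0.909%, 0.104% and 0.552% among immune-like cells. The single cell richest in Col8a1 gave 1.31% of the Cd226-/- and 3.92% of the WT total, so no single cell carried the difference.

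Col8a1 was concentrated in clusters 2 and 22. In cluster 2 it stood at 146 in naive CD45-, 66.7 in WT and 321 in Cd226-/- cells, and in cluster 22, led by Angptl7 and Vwa1, at 395, 172 and 282. WT cells thus had the lowest level in both clusters, and the higher WT total over naive turned to 2.20-fold lower within cluster 2. Cluster 2 made up 22.2% of WT and 28.0% of Cd226-/- fibroblasts. Col8a1 was past the fold and higher in Cd226-/- than in WT cells in all 3 of the larger clusters where it could be measured (2, 7 and 8), at 4.81-fold, 4.47-fold and 4.82-fold.

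**Figure D3:**
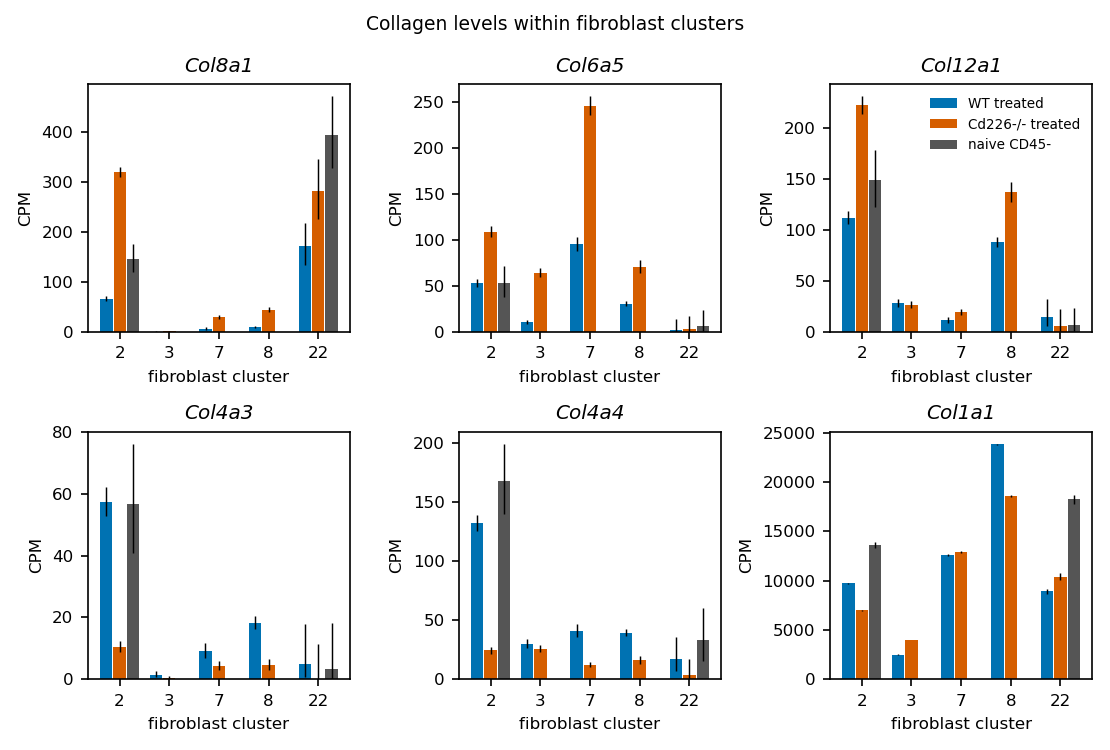
Levels of Col8a1, Col6a5, Col12a1, Col4a3, Col4a4 and Col1a1 (vertical axes, CPM, each from 0) in 5 fibroblast clusters by library; lines are exact 95% Poisson intervals, and naive bars are missing where the cluster had fewer than 50 naive cells. Col6a5 is higher in the Cd226-/- library in clusters 2, 3, 7 and 8, while Col1a1 is higher there in cluster 3 and lower in clusters 2 and 8.

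Col15a1 and Col18a1 are multiplexins, which join basement membranes to the matrix around them and give rise to fragments that act on vessels. Col15a1 stood at 455 in naive CD45-, 159 in WT and 103 in Cd226-/- fibroblasts, 2.85-fold and 4.41-fold lower in treated skin and 1.55-fold lower in Cd226-/- than in WT (1.49 to 1.61). Between genotypes the difference was 1.09-fold with the 4 clusters weighted equally. Taken singly, 3 of these 4 clusters had a lower Col15a1 level in Cd226-/- than in WT cells, 2 of them past the fold, and 1 a higher level. Col15a1 was highest in cluster 22, at 3594, 2116 and 2371 CPM. Col18a1 stood at 72.1, 51.4 and 45.1 in all fibroblasts.

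Col7a1, the anchoring fibril chain, stood at only 5.29 CPM in naive CD45-, 3.03 in WT and 4.90 in Cd226-/- fibroblasts. It was 1.62-fold higher in Cd226-/- than in WT (1.29 to 2.03), and 1.19-fold higher with cells over 5% mitochondrial UMIs left out. It was far higher in small clusters: 277 CPM in cluster 31, papillary fibroblast-like cells of naive skin, and 49.0 in Cd226-/- against 18.1 in WT cells of cluster 18. Col28a1, a minor chain linked to nerve basement membranes, stood at 0.634 in naive CD45-, 1.06 in WT and 3.90 in Cd226-/- fibroblasts, 3.67-fold higher in Cd226-/- than in WT (2.63 to 5.203), from 145 against 48 UMIs. Its level was highest in cluster 22 (134, 57.3 and 155), as was that of Col26a1 (118, 14.9 and 37.1).

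Counted over the family, 28 collagen genes could be compared between the genotypes: 5 were past the fold higher in Cd226-/- fibroblasts and 4 lower, beside 6.12% higher and 6.40% lower of all 12351 genes. The median log2 ratio of the collagens was -0.16, against 0.02 for all genes, and without clusters 8 and 18 it was -0.002. For WT treated against naive CD45-, 9 of 30 were past the fold higher and 12 lower, beside 19.6% and 12.3% of genes, and for Cd226-/- treated against naive CD45- 8 of 31 were higher and 14 lower, beside 23.7% and 14.9%. Lower calls were thus more frequent among collagens than among all genes in both treated libraries, which share their naive reference. Higher calls were more frequent among collagens as well, though only slightly in Cd226-/- fibroblasts. Trimmed-mean scaling shifted all genes by 0.21 (log2) in both, and gave 6 higher and 14 lower collagens for WT and 7 and 16 for Cd226-/-. Between genotypes it gave 5 and 5. The share of all genes past the fold was not counted under that scaling, so these counts are not read against it. The 8, 6 and 5 collagens left out of the 3 comparisons were those with under 50 UMIs, among them Col11a2, Col13a1, Col17a1, Col24a1 and Col6a4 each time. These 5, Col8a2 and Col26a1 stood at no more than 0.790 CPM in fibroblasts of the WT, Cd226-/- and naive CD45- libraries (the highest was Col8a2 in naive CD45- cells), and Col23a1 at 3.56, 2.53 and 4.31.

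**Figure D4:**
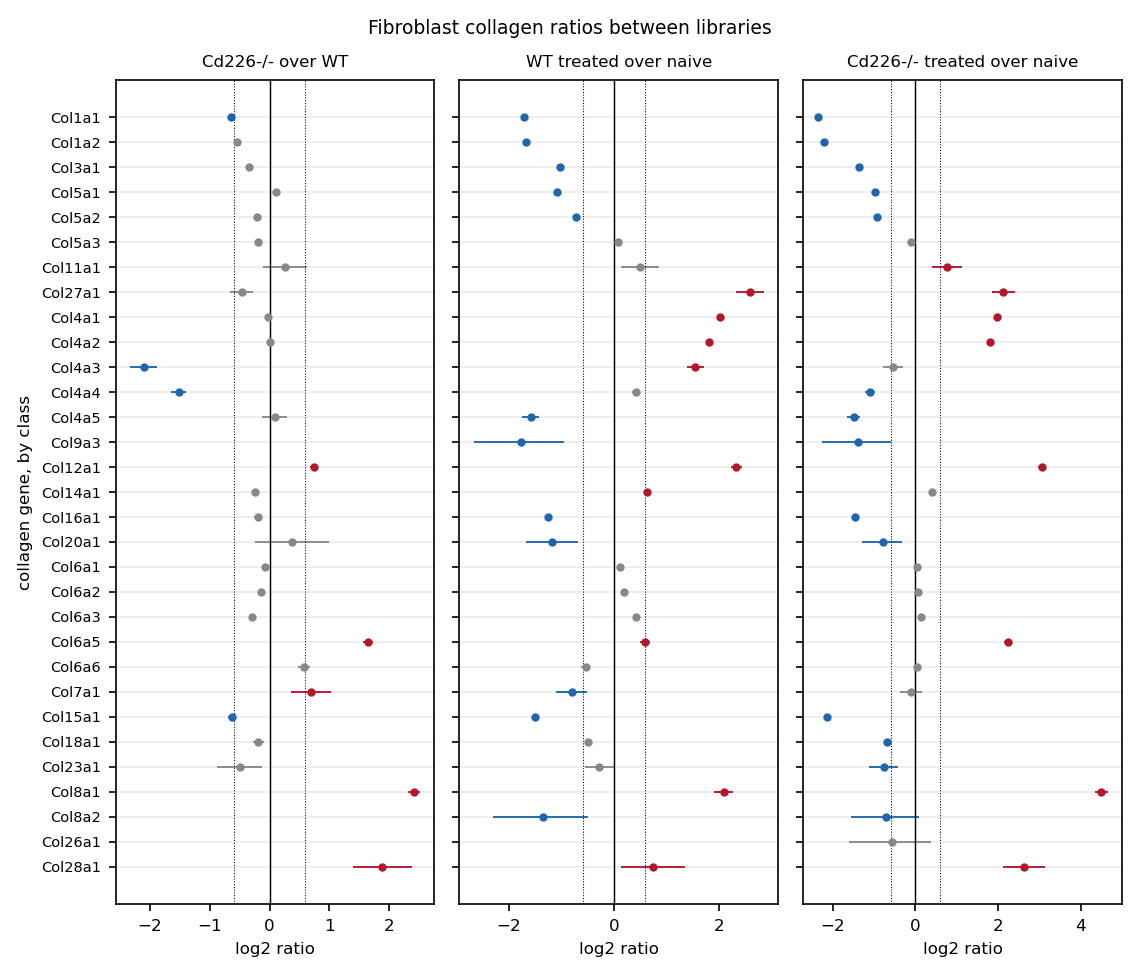
Log2 ratio of each collagen gene in fibroblast-like cells (horizontal axes) for Cd226-/- over WT, WT treated over naive CD45- and Cd226-/- treated over naive CD45-; lines are exact 95% counting intervals, dotted lines mark 1.5-fold, and red and blue points lie past it. Col8a1, Col6a5, Col28a1, Col12a1 and Col7a1 lie past it to the right and Col4a3, Col4a4, Col1a1 and Col15a1 to the left for Cd226-/- over WT.

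Within single clusters the counts between genotypes were 5 of 23 collagens past the fold in either direction in cluster 2 (all genes 17.2%), 6 of 21 in cluster 3 (9.97%), 11 of 25 in cluster 7 (9.55%) and 6 of 24 in cluster 8 (12.6%). Against naive CD45- cells of cluster 2, 14 of 23 collagens were past the fold in WT, all lower, beside 33.5% of genes in either direction, and 18 of 23 in Cd226-/-, 16 of them lower, beside 40.4%. Their median log2 ratios were -0.72 and -1.10. The 2 higher ones in the Cd226-/- library were Col8a1 and Col6a5.

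Genes that make, process and degrade collagen were read in the same cells, from lists chosen with earlier results of these data known. Of 22 measured biosynthesis genes, 3 were past the fold higher and 11 lower in WT treated than in naive CD45- fibroblasts, and of 21 in Cd226-/- cells 3 and 10, beside 19.6% higher and 12.3% lower of all genes in WT and 23.7% and 14.9% in Cd226-/-. P4ha2, a prolyl hydroxylase that stabilises the helix, stood at 226 in naive CD45-, 62.8 in WT and 50.3 in Cd226-/- cells, and Creb3l1, an activator of collagen genes, at 490, 153 and 105. P4ha3, a rarer hydroxylase chain, went the other way, at 0.254, 1.62 and 13.4 CPM, 8.26-fold higher in Cd226-/- than in WT (6.45 to 10.7). Plod2, which hydroxylates lysines for crosslinks, was 2.14-fold higher in Cd226-/- than in WT, and Tmem38b, an ion channel needed for collagen modification, was 4.40-fold higher in WT and 7.38-fold higher in Cd226-/- than in naive CD45- cells.

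The other lists were read against 6.12% higher and 6.40% lower among all genes between genotypes. Of 11 processing and crosslinking genes 1 was higher and 1 lower in Cd226-/- than in WT, the latter Adamts14, a procollagen protease, at 3.31 against 6.80 CPM. None of 15 collagen-binding matrix genes and none of 7 receptor genes was past the fold. Of 12 breakdown genes 2 were higher and none lower, among them the collagenase Mmp8 at 1.59 against 0.509 (59 against 23 UMIs). Mmp8 was also a leading gene of cluster 4, which was named myeloid. The 6 myeloid markers summed to 87.4 CPM in Cd226-/- and 39.5 in WT fibroblasts. The part of free RNA in the Mmp8 difference was not tested. Against naive CD45- skin, the metalloproteinase inhibitor Timp1 was 23.4-fold higher in WT and 25.3-fold higher in Cd226-/- fibroblasts, and Aspn, a proteoglycan that binds fibrils, was 6.01-fold and 6.03-fold lower. Against naive CD45- skin, 1 collagen-binding gene was higher and 6 lower of 15 in WT, beside 19.6% higher and 12.3% lower of all genes. In Cd226-/- fibroblasts 3 were higher and 6 lower of 16, beside 23.7% and 14.9%.

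Outside fibroblasts, blood endothelium-like cells had the highest Col4a1 and Col4a2 levels of the named classes in all 3 libraries. Col4a1 stood at 1022 CPM in naive CD45- (140 cells), 1956 in WT (171 cells) and 2380 in Cd226-/- (56 cells) endothelium, and Col4a2 at 674, 1174 and 1537. Both treated libraries were above the naive one, 1.91-fold and 2.33-fold for Col4a1 and 1.74-fold and 2.28-fold for Col4a2. Between genotypes neither was past the fold. The immune-like cells of the same libraries held 14.5, 32.9 and 13.2 CPM of Col4a1, so free RNA was a small part of these levels. The basement membrane network made up 13.9%, 57.8% and 83.1% of endothelial collagen UMIs, while Col1a1, Col1a2 and Col3a1 made up 78.2%, 29.2% and 4.81%, so this share moves with type I and III UMIs.

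Type I UMIs of endothelium lay near the background: Col1a1 stood at 3418, 493 and 66.5 in blood endothelium-like cells of naive CD45-, WT and Cd226-/- skin and at 3572, 416 and 102 in immune-like cells. Such levels are not read as expression. Col15a1 stood well above it at 348, 301 and 266, as did Col18a1 at 83.1, 121 and 145. Col13a1, a transmembrane chain of cell contacts, was seen in endothelium at 78.6, 24.1 and 51.4 CPM, from 35, 25 and 17 UMIs, and its intervals overlapped between the treated libraries.

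Lymphatic endothelium-like cells also held network chains, with Col4a1 at 270 in naive CD45-, 511 in WT and 686 in Cd226-/- cells and Col18a1 at 47.7, 122 and 144. Their Col23a1 stood at 31.8, 65.1 and 116 CPM and Col8a1 at 31.8, 115 and 69.5, from 6 to 44 UMIs each. Counting intervals of the treated libraries overlapped for Col23a1 and Col8a1. Only 58, 81 and 40 lymphatic cells were kept, and the naive ones held Col1a1 at 11225 CPM against 3572 in the immune-like cells of that library. Where these UMIs come from was not tested.

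Among the named classes, keratinocyte-like cells had the highest level of Col17a1, the transmembrane chain of hemidesmosomes that fixes basal cells to the basement membrane. It stood at 296 CPM in naive CD45- (142 UMIs), 45.8 in WT (151 UMIs) and 36.3 in Cd226-/- keratinocytes (17 UMIs), and at no more than 0.583 in immune-like cells. The WT level was 6.46-fold below naive, and the intervals of WT (38.8 to 53.7) and Cd226-/- (21.2 to 58.2) overlapped. Col18a1 stood at 39.6, 106 and 91.9, 2.67-fold higher in WT than in naive CD45- cells. Col7a1, which keratinocytes also make, was counted at only 6.25, 3.33 and 4.27 CPM, from 3, 11 and 2 UMIs. The 61 naive, 206 WT and 24 Cd226-/- cells limit all of these values, and naive keratinocyte-like cells held Col1a1 at 12739 CPM against 383 in WT, which exceeds the immune-like background as well.

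Dermal papilla-like cells, the signalling mesenchyme at the base of the hair follicle, were kept from WT (418 cells) and Cd226-/- skin (241 cells), whereas the naive CD45- library had 12. Collagens were a small part of their UMIs, 0.923% in WT and 1.15% in Cd226-/-. Col23a1, a transmembrane chain, was higher there than in any other class, at 555 in WT and 736 in Cd226-/- cells, against 3.56 and 2.53 in fibroblasts. Col15a1 was also high at 863 and 884, and neither gene was past the fold between genotypes. Col13a1 stood at 66.0 and 25.1, 2.63-fold lower in Cd226-/-, from 149 and 47 UMIs.

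Type I chains of the papilla went opposite to those of all fibroblasts between genotypes. Col1a1 stood at 649 CPM in WT and 1785 in Cd226-/- papilla-like cells, 2.75-fold higher (2.59 to 2.93), and Col1a2 at 1131 and 2596, 2.30-fold higher. Col3a1 hardly differed, at 2349 and 2044, so its UMIs per Col1a1 UMI were 3.62 in WT and 1.15 in Cd226-/-. Col11a1 was 2.27-fold higher (150 against 340), while Col4a1 was 1.59-fold lower (768 against 484). Of 21 collagens measured in the papilla 6 were past the fold higher and 5 lower, beside 20% of all genes in either direction. The immune-like background of Col1a1 went the other way, 416 in WT and 102 in Cd226-/-.

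Dermal sheath-like cells, the contractile layer around the follicle, were 67 WT and 80 Cd226-/- cells with collagen shares of 2.78% and 5.76%. They held the highest Col11a1 (601 and 1244), Col12a1 (617 and 815) and Col6a3 (1518 and 2546) of the named classes in each treated library. Col11a1 was 2.07-fold and Col1a1 2.82-fold higher in Cd226-/- sheath-like cells (7120 against 20044 for Col1a1), and the Cd226-/- sheath level of Col1a1 lay above that of Cd226-/- fibroblasts (10226). The ratio of Col14a1 to Col12a1 was 0.127 and 0.241 here, against 7.73 and 3.94 in fibroblasts of the same libraries. Cluster 15, led by Dkk2, Coch and Acta2, held 591 naive CD45- cells and scored highest for sheath markers. With 2 of these markers detected, under the minimum of 3, it was counted with fibroblasts.

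**Figure D5:**
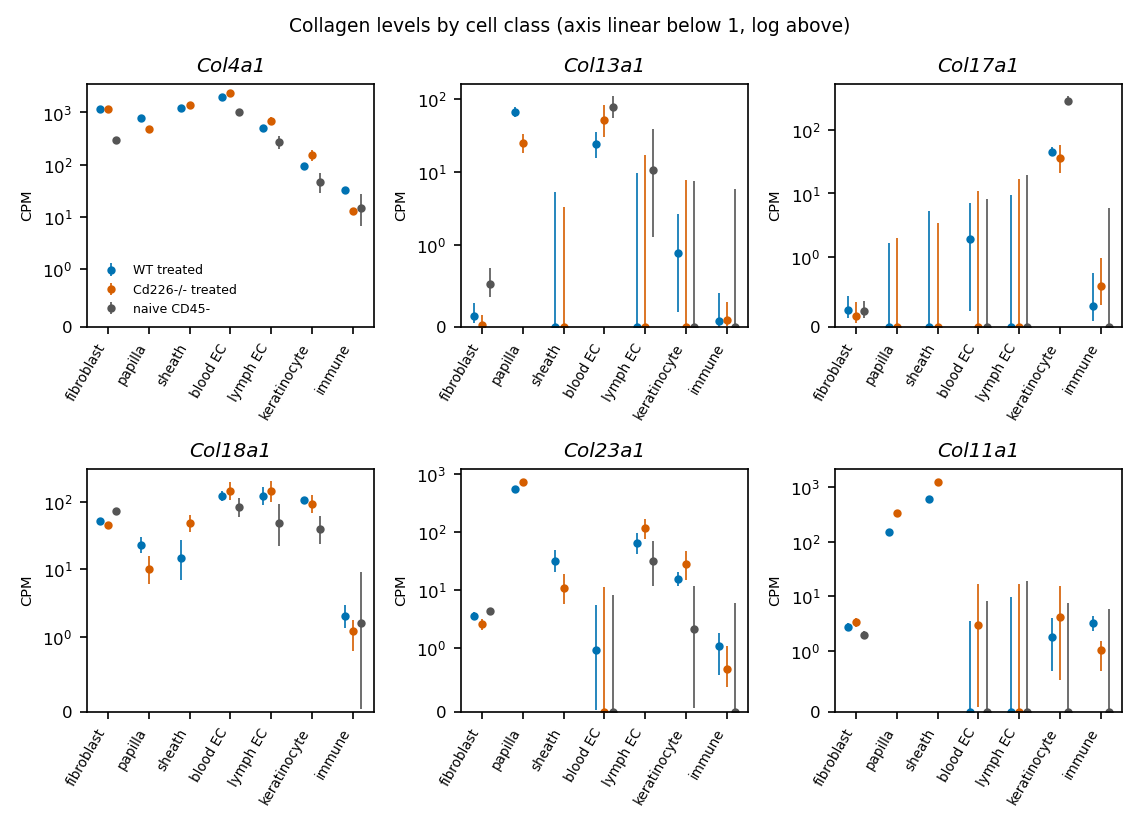
Levels of Col4a1, Col13a1, Col17a1, Col18a1, Col23a1 and Col11a1 (vertical axes, CPM, linear below 1 and log above) by cell class and library, with exact 95% Poisson intervals; papilla and sheath had too few naive cells for a point. Col17a1 stands out in keratinocyte-like, Col23a1 in papilla-like and Col11a1 in sheath-like cells, and the immune-like cells at the right show the free RNA level.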

How the data were processed

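Tables of raw UMI counts per gene and cell barcode were deposited; the submitters' processing notes name Cell Ranger 3.1.0 and mm10. They hold called cells only, and 0 columns went unmapped. Counts of a 3′ assay come from transcript ends. Cells were kept with at least 500 genes, 1000 UMIs and no more than 10% of UMIs from mitochondrial genes; Scrublet, run in scanpy 1.11.5 with an expected rate of 0.06, marked doublets, which were left out. Collagen genes were removed before clustering (2000 variable genes, 30 principal components, 15 neighbours, Leiden resolution 1.0, 34 clusters), so that they did not set the clusters. Clusters were named "-like" from marker lists without collagens: immune where at least 40% of cells had a Ptprc UMI, otherwise by the highest marker score if at least 3 and with at least 3 markers detected. The 14 fibroblast clusters are also given by number and leading genes, because most had no clear subset name.

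UMIs were summed over cells per class and library and divided by the class total. Levels have exact Poisson, shares exact binomial and ratios exact conditional binomial intervals at 95%, which cover counting error only. Ratios need 50 UMIs over both libraries and, in clusters, 50 cells in each; a count of 0 was set to 3. The script was tested on simulated data. No test was run, since each group is 1 library. The core chains of types I, III, IV, V, VI, VII, VIII, XII, XIV, XV, XVII and XVIII are named whatever their values. Further collagens are named if past 1.5-fold under total and trimmed-mean scaling, up to 10 per direction, in order of the interval end that lies closest to 1, and other list genes up to 3 per direction; outside fibroblasts, a collagen is named in its highest class or at 5 times the immune level. Members and lists were chosen with earlier results of these data known. Promoter windows are from RefSeq (GRCm38.p6). Alternatives were trimmed-mean scaling, totals without collagens, a 5% mitochondrial limit, doublets kept, clustering with collagens or per library, means over cells, the richest cell left out, a minimum of 200 UMIs and equal weight per subset. Versions were Python 3.11.15, matplotlib 3.10.9, scikit-learn 1.9.0, pandas 2.3.3, python-igraph 0.11.9, scipy 1.17.1, anndata 0.12.19 and numpy 2.4.6.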

Additional observations from a re-analysis of the deposited data

Results flagged for a closer look

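Among the numbered fibroblast clusters and the dermal papilla-like cells, the ratio of Cd226-/- to WT was past 1.5-fold in opposite directions for 3 collagen genes; the differences between the groups were not tested. Col27a1 was 1.94-fold higher in Cd226-/- dermal papilla-like cells (45 against 28 UMIs) and 1.96-fold lower in fibroblast cluster 3 (22 against 34 UMIs), with few UMIs in both. Col4a1 was 1.57-fold higher in Cd226-/- cells of fibroblast cluster 22 and 1.59-fold lower in dermal papilla-like cells. Col14a1 was 1.62-fold higher in Cd226-/- cells of cluster 18, the Tnc and Grem1 high fibroblast-like cells, and 1.73-fold lower in cluster 7, the adventitial or reticular resting-like cells. Outside that set, Col1a1 was 1.56-fold lower over all fibroblasts but 1.60-fold higher in cluster 3, 2.75-fold higher in papilla-like and 2.82-fold higher in sheath-like cells, and Col15a1 was 1.55-fold lower over all fibroblasts and 1.73-fold higher in sheath-like cells.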

How the results depend on the processing

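Total counts of collagens past 1.5-fold stayed within 1.5 times the reported count in each of the 3 comparisons, but not by direction: in cluster 2 alone, with 23 collagens measured, WT treated against naive gave 0 higher and 14 lower (reported 9 and 12) and Cd226-/- treated against naive 2 and 16 (reported 8 and 14). Of 9 calls between genotypes 6 held under every alternative that gave them a value (Col28a1 fell below the minimum of 200 UMIs, so that one gave none), of 22 for Cd226-/- treated against naive 15, and of 21 for WT treated against naive 10. The median log2 ratio between genotypes moved to -0.028 with equal weight for clusters 2, 3, 7 and 8 and to -0.002 without clusters 8 and 18. For WT treated against naive it moved to -0.45 with separate clustering of each library and to -0.72 in cluster 2 alone. In cluster 2 alone, the one subset large enough in all 3 libraries, directions against naive turned for Col12a1 (WT, -0.41), Col14a1 (WT, -0.41), Col27a1 (WT, -0.61; Cd226-/-, -0.37), Col8a1 (WT, -1.14) and Col18a1 (Cd226-/-, 0.16, log2). With separate clustering Col11a1 turned in Cd226-/- against naive (-0.40).

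The collagen share of fibroblast UMIs was 4.28% (Cd226-/-) and 15.47% (naive CD45-) with doublets kept; 4.29%, 5.90% (WT) and 15.49% with separate clustering of each library; 3.87%, 4.93% and 13.6% as a mean over cells; 5.89% (WT) and 15.4% (naive CD45-) with a 5% mitochondrial limit; and 3.68% and 3.74% without clusters 8 and 18. Causes were not tested. No paired analysis was possible because each group is 1 library. Depth limits chains under about 1 CPM and all values from endothelial and keratinocyte cells, and 1 pool of 3 mice per genotype cannot show variation between animals.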

Other observations

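One cluster led by melanocyte genes (Dct, Pmel, Tyrp1) held collagens that were rare in most other cells. In its 25 naive CD45- cells Col20a1, a FACIT chain, stood at 260 CPM from 23 UMIs (165 to 390), against 2.24 in fibroblasts of that library, and Col27a1 stood at 147 CPM from 13 UMIs. The 85 WT cells of the cluster held 2 Col20a1 UMIs and 7 Col27a1 UMIs, and the 22 Cd226-/- cells held 0 and 1. Col28a1, the chain of nerve basement membranes, stood at 56.5 CPM there from 5 naive UMIs, below the 134 CPM of fibroblast cluster 22 in naive CD45- skin. Other cell types that the cluster could hold were not separated from it, and their part in these levels was not tested.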
